A study of Homo sapiens with 4 samples.

Results

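The set described here holds 753 antisense features of the human genome that were transcribed in a lymphoma cell line. Each is a listed gene counted on the strand opposite to the gene, called an antisense entry below, and the gene itself is called the host. A feature was taken when at least 300 of its bases were counted and its RPKM (reads per kilobase of counted bases, scaled to the library total) was at least 0.5 in at least 1 of 4 libraries. BTRC and UNC45B were left out. Of 21775 antisense entries, 20348 had at least 300 counted bases and 753 met the whole rule. The antisense RPKM in the 4 libraries therefore chose the members, and their levels and the counts drawn from them are descriptions.

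RNA on the opposite strand of a gene can arise in several ways that are known from other work. RNA polymerase II goes on past the polyadenylation site of a gene and stops only downstream, so that a neighbour facing the other way can be read through on its antisense strand. Many promoters also fire in both directions, and some genes carry a separate long noncoding RNA gene on their other strand. Labelling of newly made RNA shows all of these well, because it catches RNA before it is degraded.

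The libraries come from Karpas 299, an established line of ALK-positive anaplastic large cell lymphoma, by Bru-seq, in which living cells take up bromouridine and RNA that contains it is pulled down by an antibody. In one experiment the cells were given DMSO, the solvent, or SM-164, which mimics Smac and blocks inhibitor of apoptosis proteins, for 3 h. In the other they lay for 3 h on hamster CHO cells, the negative control, or on CD30L+ CHO cells, which carry the ligand of the receptor CD30, and were then collected by pipetting. Labelling took the last 30 min in all 4. With 1 library in each condition there was nothing to test replicates with and no p-value was computed, and the 95% intervals cover counting error only.

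Library totals ranged from 26217590 reads (SM-164) to 45885631 (CHO). All antisense entries together took 3.31% to 3.57% of the reads, and the 753 members took 1.04%, 1.04%, 1.30% and 1.30% in DMSO, SM-164, CHO and CD30L+ CHO. Of 9 markers of the line, 7 were at an RPKM of at least 0.5 in all 4 libraries, and MUC1 and ALK were below it. ALK was at 0.0966 to 0.137, a level taken over exons and introns together. The summed RPKM of the 9 was 91.6, 105, 53.4 and 68.5 in the same order of libraries. Of 12 markers of other cells, 10 were below 0.5 in all 4 libraries, and the summed RPKM of the 12 was 2.35, 2.495, 1.81 and 1.11. CD3D, a chain of the T cell receptor complex, was at 1.25 and 1.35 in DMSO and SM-164, and LYZ, the lysozyme gene of myeloid cells, was at 0.600 in CHO. The strands were well separated: over the 20 sense entries with a mean RPKM of at least 50, the median antisense level was 0.0448% of the sense level. ACTB, the gene of beta-actin, stood at 0.00815% and MALAT1, a nuclear noncoding RNA, at 0.0464%. The exceptions at 1% or more were HSP90AB2P (101%), RPL21 (4.27%), RPL41 (1.98%) and HNRNPA1 (1.74%), which are a pseudogene and genes with many processed copies, where reads of near-identical copies can be placed wrongly.

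Start sites known from RefSeq show what kinds of DNA lie next to 4 of the members discussed below. ZNF566 and TIFA are listed genes whose starts lie beside a member or whose transcripts point at one. LY86-AS1 and MAP3K5-AS2 are antisense RNA genes that, in RefSeq, overlap the host genes LY86 and MAP3K5. These antisense genes have no entry of their own in the deposited files. Each line gives the 250 bases upstream of a start, 5′ to 3′ on the strand of the antisense RNA, in RefSeq's build GRCh38.p14. These are chr19:36489562-36489811 on the minus strand for ZNF566 (1 of 2 windows listed for it), chr4:112285905-112286154 on the minus strand for TIFA, chr6:6622827-6623076 on the minus strand for LY86-AS1 and chr6:136783797-136784046 on the plus strand for MAP3K5-AS2. Capitals mark matches on either strand to GGGNNNTTCC, an NF-kB type motif, or to CCAAT.
ZNF566: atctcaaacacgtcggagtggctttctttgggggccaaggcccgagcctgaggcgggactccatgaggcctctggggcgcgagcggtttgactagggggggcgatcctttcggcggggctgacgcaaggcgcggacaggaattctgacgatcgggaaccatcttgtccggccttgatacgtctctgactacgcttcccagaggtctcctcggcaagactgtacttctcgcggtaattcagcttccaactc
TIFA: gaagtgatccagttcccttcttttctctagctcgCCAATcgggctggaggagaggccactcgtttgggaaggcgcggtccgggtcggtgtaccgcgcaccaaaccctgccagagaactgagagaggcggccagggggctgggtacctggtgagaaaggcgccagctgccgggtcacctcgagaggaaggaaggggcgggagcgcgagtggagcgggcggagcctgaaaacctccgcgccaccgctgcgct
LY86-AS1: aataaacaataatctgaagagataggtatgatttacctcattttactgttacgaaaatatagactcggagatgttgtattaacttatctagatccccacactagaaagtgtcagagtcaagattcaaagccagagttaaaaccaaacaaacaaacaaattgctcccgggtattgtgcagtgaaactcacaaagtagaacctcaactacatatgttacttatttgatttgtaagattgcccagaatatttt
MAP3K5-AS2: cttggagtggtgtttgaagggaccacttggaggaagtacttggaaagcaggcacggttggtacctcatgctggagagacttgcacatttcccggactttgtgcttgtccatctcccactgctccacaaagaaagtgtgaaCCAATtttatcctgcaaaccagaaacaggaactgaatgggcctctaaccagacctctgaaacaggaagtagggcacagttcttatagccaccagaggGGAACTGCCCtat
CCAAT matched in TIFA and in MAP3K5-AS2, and the matches to the different motifs did not overlap. It occurs in 32.0% of the 35116 upstream windows of the same length in RefSeq's table. GGGNNNTTCC matched in MAP3K5-AS2, and it occurs in 5.67% of all windows. A TATA box motif, TATAAA, found in 10.7% of all windows, had no match in these 4. The ZNF566 and TIFA windows held 21 and 22 CG dinucleotides, against 3 for LY86-AS1 and 2 for MAP3K5-AS2 and a median of 11 over all windows. A match is a run of letters and is not evidence of binding.

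Most members were transcribed at low levels. The mean RPKM over the 4 libraries was below 1 in 571 members, between 1 and 5 in 166 and at least 5 in 16, with a median of 0.613. The highest was HSP90AB2P at 68.3. The counted length had a median of 8226 bases and ran from 316 to 308748, and 484 members were counted over the whole host. The threshold was met in all 4 libraries by 309 members, in 3 by 78, in 2 by 195 and in 1 by 171. By library it was met by 414 in DMSO, 414 in SM-164, 654 in CHO and 549 in CD30L+ CHO. The co-culture libraries therefore supplied more members: 147 passed only in CHO and CD30L+ CHO, and 23 passed only in DMSO and SM-164. Just inside the threshold lay SLC4A5, MIR600HG and PCDHB9, with highest values of 0.5002, 0.5004 and 0.501. Just outside lay RPS6KB2, GCFC2 and RMND5B, with 0.4997, 0.499 and 0.499.

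Among the members, antisense levels bore little relation to the level of the host on its own strand. Across the 753 members the Spearman correlation of the mean antisense and sense RPKM was 0.09, given as a description across features that share libraries. The rule cut off low antisense levels, so this value does not speak for antisense entries at large. The counts below are likewise of members only, and no share over all antisense entries was computed. In 404 members the antisense level was above the sense level, and in 345 of these it was so in each of the 4 libraries. The sense entry of 223 members was below an RPKM of 0.1. Separately counted, 33 members, some of them among the 404, had antisense and sense levels within 1.5-fold of each other in all 4 libraries. HSP90AB2P, a pseudogene of a heat shock protein gene, led these with an antisense RPKM of 65.3, 65.6, 70.7 and 71.7 in DMSO, SM-164, CHO and CD30L+ CHO and a sense RPKM of 62.0, 67.9, 69.2 and 72.6. LOC643406, LOC100131257 and TMEM212 were also among them, with mean antisense RPKM of 10.7, 8.78 and 3.83 beside sense means of 9.19, 7.61 and 3.92.

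**Figure D1:**
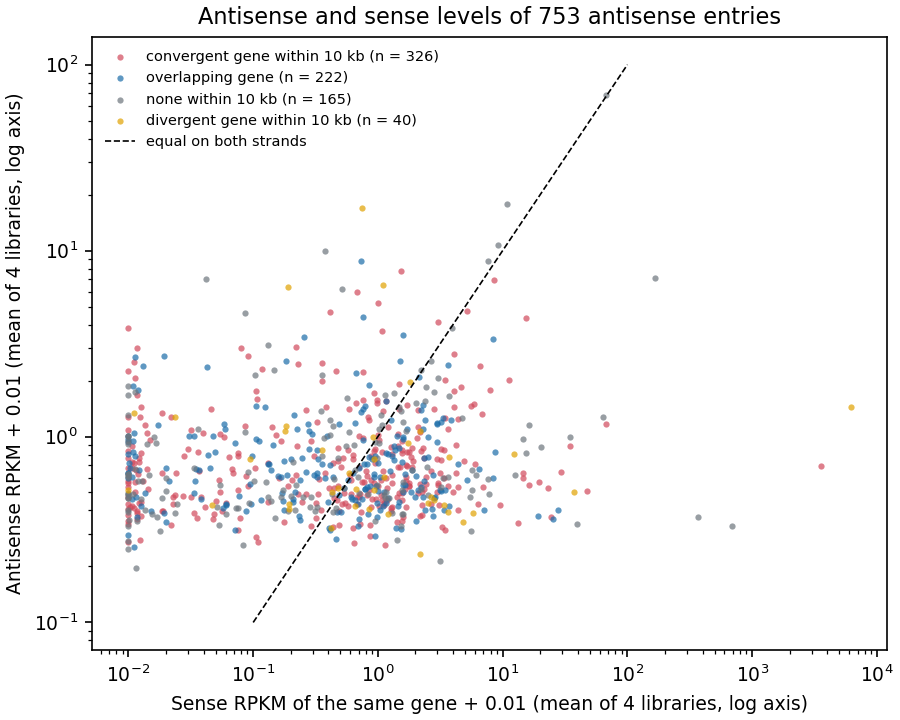
Mean antisense RPKM (vertical) against mean sense RPKM of the same gene (horizontal), both plus 0.01 on log axes, for the 753 members, coloured by the nearest opposite-strand gene. Points form a broad band between antisense levels of about 0.2 and 10 whatever the sense level, and HSP90AB2P lies on the line of equal levels at 68.3. The lower edge of the band is set by the rule that chose the members.

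The position of the nearest listed gene on the opposite strand, which the rule did not use, set the members apart from antisense entries at large. A gene overlapping the host was present for 222 members (29.5%), against 12.8% of all antisense entries of at least 300 counted bases. A convergent gene, one that ends within 10 kb of the host's end and reads into it, was the neighbour of 326 members (43.3%), against 20.4%. In both arrangements RNA of the neighbour lies on the antisense strand of the host or runs towards it. A divergent gene, which starts within 10 kb of the host's start and reads away, was present for 40 (5.31%), against 10.4%. The remaining 165 (21.9%) had none of these within 10 kb, against 56.3% of all. The median distance from the end of a convergent neighbour to the host was 2.12 kb. The rule for bases shared by overlapping genes is not stated in the labels or file headers. Of 535 antisense entries whose span still held a listed gene of that strand, 430 (80.4%) had counted bases equal to the span without that gene, and 5.55% of the other entries also had fewer counted bases than their span.

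**Figure D2:**
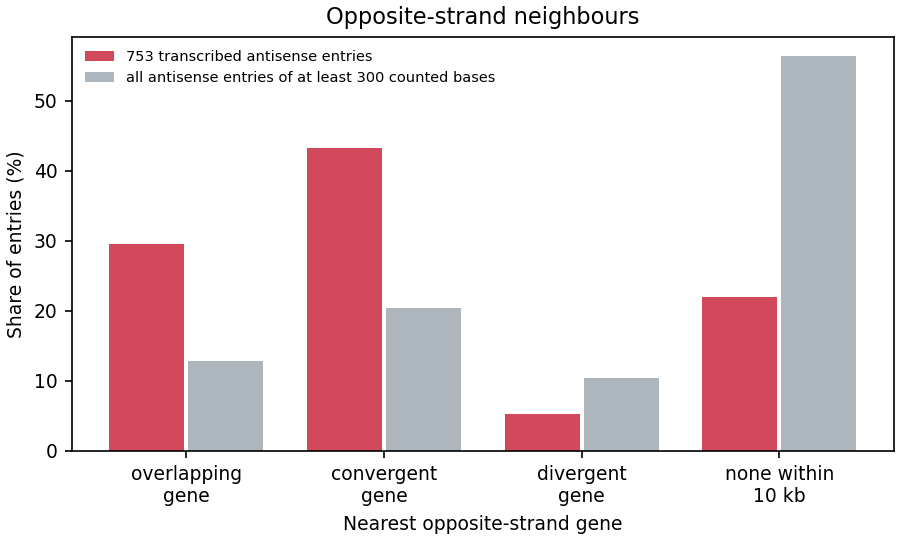
Share of entries in percent (bars, vertical axis from 0) by the position of the nearest opposite-strand gene (horizontal), for the 753 members and for all antisense entries of at least 300 counted bases. Convergent and overlapping neighbours make up 43.3% and 29.5% of the members but 20.4% and 12.8% of all entries.

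For many members the gene reading towards them was itself active. An entering gene was defined, after the values were seen, as the opposite-strand gene of highest mean RPKM that ends inside the host or up to 10 kb before it. Such a gene with a mean RPKM of at least 0.5 was present for 491 members (65.2%), against 11.1% of the 19593 other entries. Its level was above the antisense level in 476 of the 491, a count that the rules favour. The entering gene was the strongest candidate and had to reach 0.5, while 571 of the 753 members had a mean RPKM below 1. For the other entries with such a gene, whose antisense level is below 0.5, the same holds by rule. The count is therefore a description. The remaining 262 members had no transcribed entering gene, and 64 of these had a transcribed gene ending on the antisense strand within 50 kb.

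The level of antisense RNA was lower where the entering gene ended farther away, mainly at 5 to 10 kb. This could be read without choosing entries by their antisense level. Over 1716 antisense entries picked only for an entering gene with a mean RPKM of at least 1, of which 439 were members, the median antisense RPKM was 4.26% of the entering gene's in DMSO, 4.49% in SM-164, 8.82% in CHO and 8.05% in CD30L+ CHO. Where the entering gene ended less than 1 kb away, the medians were 4.74%, 5.27%, 10.4% and 9.82%. They were similar at 1 to 2.5 kb, with 4.56%, 5.44%, 10.7% and 9.16%, and somewhat lower at 2.5 to 5 kb, with 3.97%, 3.83%, 8.03% and 7.20%. At 5 to 10 kb they were 1.57%, 1.45%, 3.98% and 3.59%. In every distance group the pair of co-culture libraries lay above the pair of drug libraries. The share was higher in CHO than in DMSO in 1465 of 1716 entries (85.4%), and was higher in CD30L+ CHO than in SM-164, a pair of libraries with no sample in common with the first, in 1374 (80.1%). For SM-164 against DMSO it was higher in 910 (53.0%), and for CD30L+ CHO against CHO in 626 (36.5%). A ratio to the entering gene in the same library does not depend on how libraries are scaled. The experiment, the hamster layer and the collection by pipetting changed together between the pairs, and their parts in this difference cannot be told apart. Levels are shares of each library, so fewer cells of a state and less labelled RNA per cell cannot be told apart either.

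**Figure D3:**
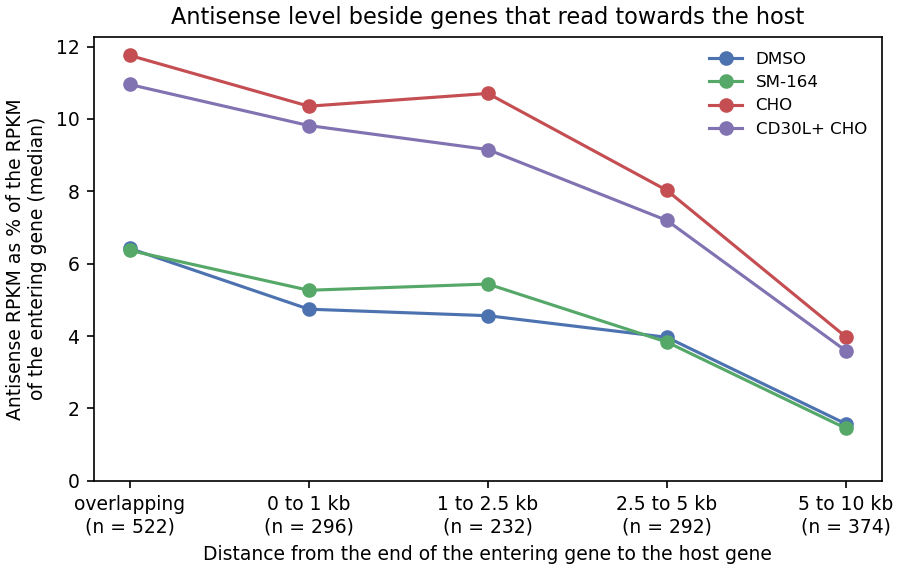
Median antisense RPKM as a percentage of the entering gene's RPKM (vertical, from 0) by distance of the entering gene's end from the host (horizontal), 1 line per library, over 1716 entries chosen by position. The leftmost point holds entries whose host overlaps an opposite-strand gene. CHO and CD30L+ CHO lie above DMSO and SM-164 at all distances, for example 3.98% and 3.59% against 1.57% and 1.45% at 5 to 10 kb.

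Among members overlapping a listed gene, CD96 and C1orf56 stood out. CD96 is a receptor of T and natural killer cells, and ZBED2, a zinc finger gene, lies within it on the other strand (CD96 antisense, minus strand, hg19 chr3:111260926-111371206). CD96 antisense RPKM was 5.43 in DMSO, 5.14 in SM-164, 1.397 in CHO and 2.10 in CD30L+ CHO, and ZBED2 stood at 24.1, 21.9, 3.05 and 5.19 in the same order. The sense level of CD96 was higher in the co-culture libraries, at 1.13, 1.33, 1.67 and 2.18. C1orf56 antisense was 1.49, 2.02, 3.59 and 6.62, beside CDC42SE1, a small effector of the GTPase CDC42, at 7.80, 8.46, 8.16 and 14.6. LOC100506046, which overlaps the noncoding snoRNA host gene GAS5, had the highest mean of the overlapping members, 8.78, with 6.85, 6.56, 12.5 and 9.22. LOC100507577, beside the ubiquitin ligase gene SIAH1, came next at 4.402, with a range of 3.39 to 5.31.

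Members facing a convergent gene were led by hosts next to genes of RNA-binding proteins. FAM36A antisense, across from HNRNPU, an abundant nuclear RNA-binding protein, was 5.51, 5.09, 9.72 and 10.6 in DMSO, SM-164, CHO and CD30L+ CHO. NFE2L3, the gene of a CNC family transcription factor, lies 2.80 kb past the end of HNRNPA2B1, another such protein (NFE2L3 antisense, minus strand, hg19 chr7:26191847-26226756). NFE2L3 antisense was 2.81, 2.92, 9.0004 and 9.10, while HNRNPA2B1 was 55.1, 53.6, 38.5 and 43.1. METTL23, a methyltransferase gene 0.234 kb past the end of the splicing factor gene SRSF2, had antisense RPKM of 3.44, 3.95, 6.85 and 6.53. In all 3 the co-culture libraries were high and the drug libraries low, with the entering gene lower in CHO than in DMSO. DEXI was low in the co-culture libraries instead: its antisense entry, across from CIITA, the transactivator of MHC class II genes, was 6.80, 5.92, 3.33 and 2.71, and CIITA was 6.17, 7.59, 3.89 and 3.93.

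Members next to a divergent gene were few, and their leaders lay upstream of listed starts. GPR15, a receptor of leukocytes, had an antisense RPKM of 16.8, 16.5, 18.5 and 16.3 with a sense RPKM of 0.595 to 0.842. It lies 8.97 kb before the listed start of CLDND1, which was at 10.7 to 18.5. LOC728752, an uncharacterised gene, lies 0.065 kb before the start of ZNF566 (antisense on the minus strand, hg19 chr19:36980529-36981942), the zinc finger gene whose upstream DNA is printed above. LOC728752 antisense was 10.6, 9.01, 6.18 and 0.466, from 464, 334, 401 and 30 reads, so that CD30L+ CHO stood far below the other libraries. ZNF566 itself was at 0.384, 0.370, 0.470 and 0.365.

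Members with no listed neighbour on the other strand included long stretches of antisense RNA. MDM1, the gene of a microtubule-binding protein, had an antisense RPKM of 5.35, 5.71, 5.72 and 7.92 over 37816 bases (plus strand, hg19 chr12:68688346-68726161), far above its sense RPKM of 0.448 to 0.539. LY86, which encodes the partner protein of the receptor CD180, had 8.51, 8.60, 6.15 and 4.85 over 66283 bases (minus strand, hg19 chr6:6588934-6655216) with a sense RPKM of 0.0139 to 0.0501. RefSeq's later annotation has LY86-AS1 overlapping LY86 on that strand, and its upstream bases are printed above. How much of the 66283 bases it covers was not analysed. SLC16A4, a transporter of the monocarboxylate family, had 3.91, 4.76, 4.26 and 5.46, and the nearest gene on that strand, RBM15, ended 16.2 kb before it at an RPKM of 9.04 to 12.6. LOC646214 had 17.7, 17.1, 18.1 and 18.1 beside a sense RPKM of 9.58 to 11.7, and SPDYE7P, a pseudogene of a family with many copies, had 12.4, 10.7, 9.19 and 7.59. None of these 5 was 2-fold apart between the libraries of a comparison.

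CHO was next compared with DMSO, the controls of the experiments, as a measure of how far they lie apart. A member counted as higher or lower when log2((RPKM + 0.25)/(RPKM + 0.25)) reached 2-fold, given a mean RPKM of at least 0.5 over both libraries, a scale that understates differences of low features. Of 529 members tested, 58 were higher in CHO and 5 lower, where 0.879% of all tested sense genes were higher and 4.52% lower. Members that met the threshold only in the co-culture libraries had to be higher there, so these counts are a description. Over the 309 members that met the threshold in all 4 libraries, 21 were higher and 3 lower. The median log2 ratio was 0.41 over the 529 members and 0.06 over all tested sense genes. Without choosing members, the summed share of the library held by antisense entries rests on 2 entries: over all 21775 it was 1.00 times the DMSO share in CHO, and without BTRC and UNC45B it was 1.33 times. Leaving out these 2, the ratio was 1.60 beside a convergent gene, 1.32 beside overlapping genes, 1.20 beside divergent ones and 1.13 with no such gene. With UNC45B, which counts as convergent, that class had a ratio of 0.797, and with BTRC the entries with no such gene had 1.11. The summed RPKM of the line's 9 markers was also lower in co-culture, as given above, but the markers were not alike. NPM1 was 7.76 in DMSO and 7.10 in CHO. ALK, at 0.0980 and 0.137, was higher in CHO, and the other markers were lower there. BATF3 was 12.1 in DMSO and 13.3 in CD30L+ CHO. The part of the marker levels in these differences was not tested.

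The members higher in CHO lay mostly beside active genes that read towards them. Of these 58, 21 met the threshold in all 4 libraries, against 309 of the 529 tested. Many of the others were chosen through the libraries where they are high, so the shares and folds here are a description. Of the 58, 24 overlapped a listed gene, 30 had a convergent gene, 1 a divergent gene and 3 none, where the 529 tested members split into 161, 232, 23 and 113. An entering gene at an RPKM of at least 0.5 was present for 54 of the 58, against 352 of the 529 (66.5%). For 39 of the 54 (72.2%) the entering gene itself differed by less than 1.5-fold between CHO and DMSO, against 287 of the 352 (81.5%). The entering genes of the 54 had a median log2 ratio of 0.30, above the 0.07 over the 352. TUBD1, which encodes delta-tubulin, had the largest ratio, and the next few were chosen after their values were seen. TUBD1 antisense was 0.329, 0.348, 3.37 and 3.74 in DMSO, SM-164, CHO and CD30L+ CHO, over 2601 counted bases, a 10.1-fold difference of CHO from DMSO (6.82 to 15.5). MIR21, an abundant microRNA gene on that strand, ends 18.1 kb before it with a mean RPKM of 45.0.

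SLC10A1, a bile acid transporter gene of the liver, was almost silent on its own strand and lies 3.83 kb past the end of the splicing factor gene SRSF5. SLC10A1 antisense was 0.912, 0.852, 5.15 and 4.99, 5.65-fold higher in CHO than in DMSO (5.19 to 6.15), while SRSF5 was 16.9, 14.7, 21.5 and 21.0. OR5K2, an olfactory receptor gene listed at 0 on its own strand, lies 16.8 kb past the end of CLDND1, and its antisense entry was 0.523, 0.562, 3.43 and 2.90. In each of these DMSO and SM-164 were low and both co-culture libraries high. MMACHC, a gene of vitamin B12 metabolism that overlaps the end of PRDX1, a peroxiredoxin, had 0.208, 0.297, 1.70 and 1.87, an 8.17-fold difference (6.40 to 10.6). RFC4, a subunit of the clamp loader, had 0.447, 0.427, 2.43 and 2.23, and EIF4A2, a translation initiation factor on its other strand, had 21.4, 21.1, 22.8 and 22.1. FAM210B, next to the mitotic kinase gene AURKA, had 0.444, 0.416, 2.51 and 2.06, and ROMO1, next to the splicing factor gene RBM39, had 0.666, 0.684, 3.64 and 3.34.

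Genes of splicing and RNA-binding proteins were seen among these entering genes, and they were grouped only after that. Members whose entering gene has a symbol starting with SRSF, HNRNP or RBM numbered 12, of which 11 were tested. Of these, 5 were at least 2-fold higher in CHO and none lower, with a median log2 ratio of 0.95, beside 58 of 529 and 0.41 over all tested members. A group formed in this way had to stand high, and no more is read from it. The entering genes' own median log2 ratio was -0.23, and none was 2-fold higher. Among the tested members of the group, RBM4B antisense had the lowest log2 ratio, -0.11, with its entering gene RBM4 at 0.31. FAM92A1 antisense, at 0.22, was also below the 0.41 of all tested members.

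**Figure D4:**
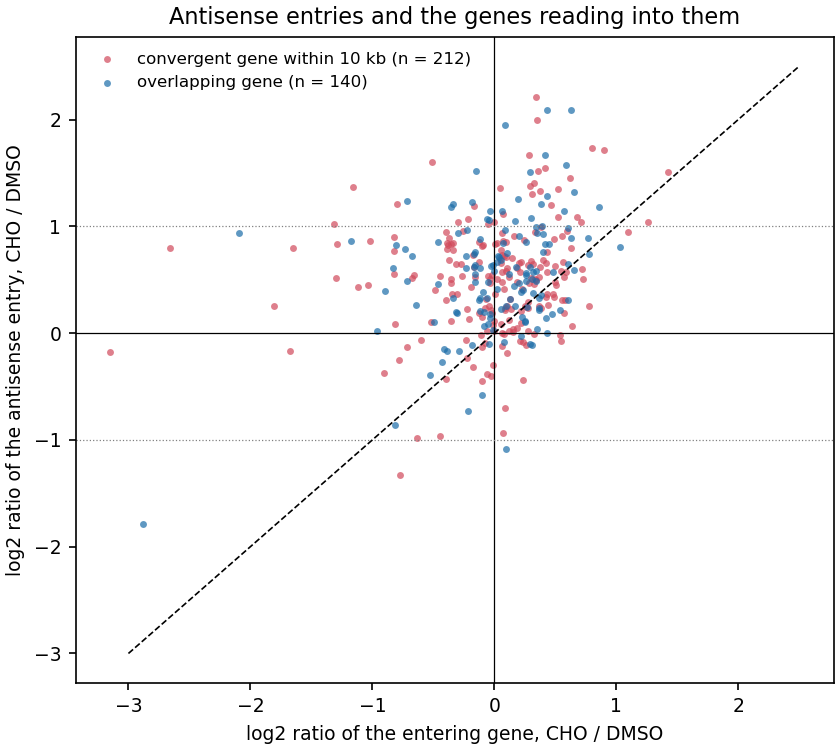
The log2 ratio of CHO to DMSO for tested members (vertical) against that of their entering gene (horizontal), for 352 members with a transcribed entering gene and an overlapping or convergent neighbour; the dashed line marks equal ratios and dotted lines mark 2-fold. Of the 352 points, 272 lie above the dashed line, and CD96 lies at the lower left.

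The 5 members lower in CHO were CD96, RBP5, MTRNR2L2, MTRNR2L8 and CEMP1. RBP5 falls outside the naming rule and was chosen after its values were seen. CD96 antisense was 3.88-fold lower in CHO than in DMSO (3.78 to 3.99), and ZBED2 on that strand was lower too, as given above. RBP5, a retinol-binding protein gene, had 2.06, 1.82, 0.673 and 0.762. MTRNR2L2, a nuclear copy of mitochondrial ribosomal RNA, had 1.90, 2.69, 0.631 and 0.509 antisense beside a sense RPKM of 9540, 8788, 2913 and 3433. Its mean antisense level was 0.0232% of its sense level, and that of MTRNR2L8 was 0.0192%. Both lie below the median of 0.0448% given above for the strongest sense entries. Whether these are reads assigned to the wrong strand was not tested. CEMP1 rests on 11, 4, 4.94 and 0 reads over 454 bases.

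The comparison of CD30L+ CHO with CHO sets the CD30 ligand beside its negative control. It shares the CHO library with the comparison above. Of 597 members tested, 6 were higher and 4 lower, where 0.979% of all tested sense genes were higher and 0.731% lower. Both shares of members, 1.01% and 0.67%, were near those of sense genes. Members that met the threshold only in CHO or only in CD30L+ CHO had to be higher there. These counts, and the folds of such members below, are therefore a description. Over the 309 members that met the threshold in all 4 libraries, 1 was higher and 0 lower. Of the 6 higher members, 4 had no listed neighbour on the other strand within 10 kb, where 111 of the 597 tested members had none. With so few members, no more is read from this. Scaling matters for the counts of higher and lower members. All tested sense genes had a median log2 ratio of -0.12. With TMM scaling, which moves this median by 0.17, 12 members were higher and 2 lower.

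IL21, a cytokine of activated T cells, had the highest ratio. IL21 antisense (plus strand, hg19 chr4:123533783-123542211) was 0.207 in DMSO, 0.283 in SM-164, 0.249 in CHO and 1.12 in CD30L+ CHO, from 54, 62.6, 96.4 and 431 reads, a 4.52-fold difference with the ligand (3.62 to 5.70). Its sense RPKM was 0.0562, 0.131, 0.0465 and 0.252, so that CD30L+ CHO was highest on both strands and the antisense strand was the higher in all 4 libraries. PTGER2, a prostaglandin E2 receptor gene, had an antisense RPKM of 0.169, 0.205, 0.251 and 0.918, 3.65-fold higher with the ligand (3.07 to 4.37), beside a sense RPKM of 0.131, 0.0960, 0.162 and 0.338. Here too only CD30L+ CHO was high. Both IL21 and PTGER2 met the threshold that chose the members in this library alone.

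MAP3K5, the kinase ASK1 of stress signalling, had an antisense RPKM of 1.35, 1.90, 0.740 and 1.74 over 235470 bases, 2.35-fold higher with CD30L+ CHO than with CHO (2.28 to 2.41). CHO was the low library in this case, since CD30L+ CHO lay between DMSO and SM-164. The sense level of MAP3K5 was 1.58, 1.83, 1.33 and 1.17. RefSeq lists MAP3K5-AS1 and MAP3K5-AS2 on the antisense strand, and the upstream bases of the latter are printed above. How much of the 235470 bases either RNA covers was not analysed, so the antisense level is not assigned to them. RPS3A, a ribosomal protein gene with processed copies, had 0.394, 0.926, 0.621 and 1.52. CD48, a SLAM family receptor gene, did not reach 2-fold on the scale used, with 0.0800, 0.0796, 0.317 and 0.798.

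For the other higher members, AP1AR and BEST1, a listed gene on the same strand was also higher with the ligand. AP1AR, a regulator of vesicle traffic, lies 5.57 kb past the end of TIFA, an adaptor that acts upstream of NF-kB, whose upstream DNA is printed above. RefSeq also lists AP1AR-DT, a noncoding RNA gene on the antisense strand at the start of AP1AR, which was not analysed here. AP1AR antisense was 0.218, 0.386, 0.656 and 1.67, and TIFA was 1.77, 3.36, 1.796 and 4.67, so that the ligand library was highest in both. BEST1, a chloride channel gene, had 0.255, 0.330, 0.929 and 2.45 beside FTH1, the ferritin heavy chain, at 22.6, 18.8, 19.9 and 48.8. Below the 2-fold mark, SLC24A1 antisense had 0.266, 0.324, 0.398 and 0.992, beside DENND4A at 1.47, 2.08, 1.39 and 3.37. SERPINA10 antisense had 0.391, 0.536, 1.57 and 3.09, beside PPP4R4 at 0.756, 1.08, 2.44 and 5.53.

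LOC728752 had the lowest ratio among the tested members. Its antisense level was 13.3-fold lower with CD30L+ CHO than with CHO (9.15 to 19.9), and its sense RPKM was 1.36 with CHO and 0.388 with CD30L+ CHO. The other lower members had low levels. TCTEX1D4 antisense had 0.320, 0.393, 0.928 and 0.303 beside the kinase gene PLK3 at 1.49, 1.34, 1.71 and 0.684. RAB26 antisense had 0.510, 0.716, 0.834 and 0.280. LOC100130348 antisense rests on 8.65, 6.69, 39.7 and 12.9 reads. In TCTEX1D4 and LOC100130348 CHO alone was high, and CD30L+ CHO was close to DMSO.

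**Figure D5:**
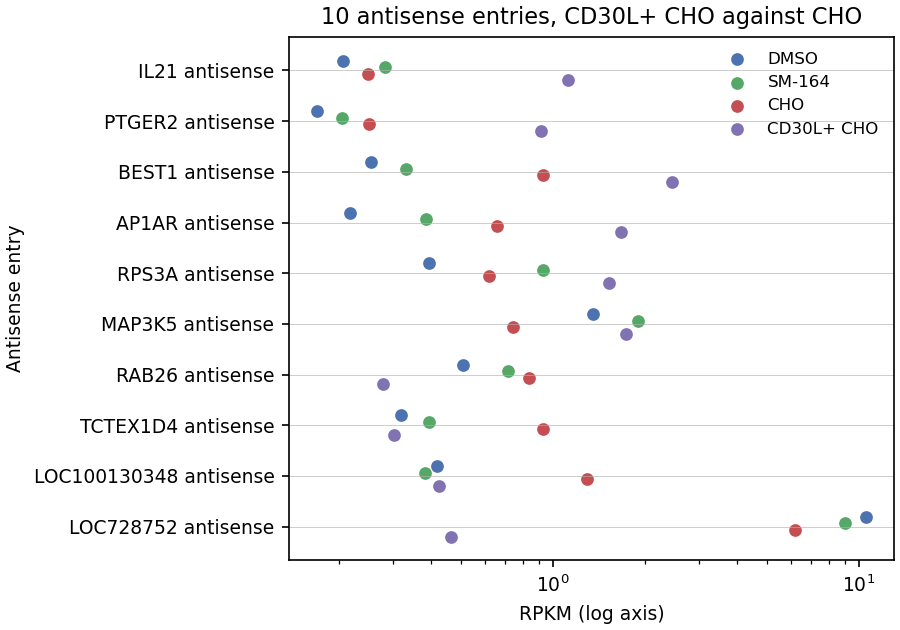
Antisense RPKM on a log axis (horizontal) in each library (coloured points) for the 10 members at 2-fold or more between CD30L+ CHO and CHO (vertical, ordered by ratio). CD30L+ CHO is the highest library for IL21, PTGER2, BEST1, AP1AR and RPS3A, and the lowest by far for LOC728752, at 0.466 against 6.18 to 10.6.

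Few members differed between SM-164 and DMSO. Of 407 members tested, 1 was higher and none lower, where 0.19% of all tested sense genes were higher and 0.0634% lower. The quartiles of the members' log2 ratios were -0.13 and 0.11. The member above 2-fold was GTF2H2C, with an RPKM of 1.13, 2.67, 2.45 and 2.25 over only 400 counted bases and 14, 28, 45 and 41 reads, a 2.37-fold difference (1.21 to 4.87). SM-164 was not alone in being high there, since only DMSO was low. The sense RPKM of GTF2H2C was 0.322, 0, 0.0545 and 0, lower with SM-164. Next came RPS3A (log2 ratio 0.87), MTRNR2L8 (0.79) and LOC283888 (0.76). The mean antisense level of MTRNR2L8 was only 0.0192% of its sense level. LOC283888 lies across from IL21R, the receptor of interleukin 21. LOC283888 antisense was 0.334, 0.736, 1.15 and 1.60, and IL21R was 2.19, 5.10, 2.54 and 4.74. At the low end, IL10 antisense was 0.908, 0.569, 0.523 and 0.453, beside a sense RPKM of 8.67, 8.42, 4.49 and 2.75 for this anti-inflammatory cytokine gene.

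The genes with the strongest NF-kB response were looked up on their antisense strand. A list of 24 such genes, which had stood high on the sense strand in earlier results of these data, held no member, where 3.70% of all antisense entries of at least 300 counted bases are members. In 22 of the 24 the highest antisense RPKM over the 4 libraries was below 0.1, as it was in 84.6% of all those entries, so neither count sets the list apart. The highest on the list was 0.333, for PTGER4 in CHO. BIRC3, which encodes c-IAP2, had a sense RPKM of 6.29, 40.7, 5.37 and 54.8 and an antisense RPKM of 0.0734, 0.0903, 0.0445 and 0.0130. TNFAIP3, the feedback inhibitor A20, had a sense RPKM of 6.32, 16.3, 7.57 and 47.6 and an antisense RPKM of at most 0.0263. For these 2 genes the antisense level was under 0.1 both where the sense level was high and where it was low.

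The genes that end transcription and remove short-lived nuclear RNA were read on their sense strand with the same rule, and their counts are near the shares of all sense genes given with each comparison (0.19% and 0.0634%, 0.979% and 0.731%, 0.879% and 4.52%). Of 20 genes of cleavage, polyadenylation and termination, none reached 2-fold with SM-164 or CD30L+ CHO (19 tested in each), and in CHO against DMSO 1 of 20 did, downward. That gene was PPP1CA, a catalytic subunit of protein phosphatase 1, with 6.57, 4.72, 1.35 and 0.796. PCF11, a termination factor, was at the upper end of this list with 4.64, 4.78, 8.37 and 8.46, a log2 ratio of 0.82 in CHO against DMSO, under the threshold. Of 19 tested genes of the nuclear exosome and its adaptors, which degrade unstable nuclear RNA, none reached 2-fold in any of the 3 comparisons. Of the Integrator genes, whose complex ends transcription of small nuclear and other noncoding RNA, 8 or 9 were tested and none reached it. Whether these levels bear on the antisense levels was not tested.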

How the data were processed

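Per the submitters' processing notes, the tools were CASAVA 1.8.2, Bowtie 0.12.8, TopHat 1.4.1 and also bedtools 2.16.2, on build hg19. The annotation and counting rule are not given in the sources used here. Per the labels' protocols, first strands were made with actinomycin D for strand-specific reads. For every feature the authors deposited an estimated count of reads, over exons and introns together, a signal per counted base and an RPKM. Library totals recovered from these columns were 31030478 (DMSO), 26217590 (SM-164), 45885631 (CHO) and 45535365 (CD30L+ CHO).

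Folds with exact conditional (Clopper-Pearson) 95% intervals compare rounded estimated counts over the totals. Without molecular identifiers, PCR reads are not independent, so intervals cover counting error only. Calls used RPKM plus 0.25, a mean RPKM of at least 0.5 and 300 counted bases. Named members were the 15 highest, the 10 highest and 10 lowest ratios with SM-164 and with CD30L+ CHO, the 6 highest per neighbour class, the 6 most antisense, any beside an NF-kB list gene, and 3 on each side of the threshold. Members and lists were chosen with earlier results of these data known. RefSeq (GRCh38.p14) was matched by symbol and gave a strand for 525 of 753 hosts, so it was used for names and sequences only. Scripts ran in Python 3.11.15 with scipy 1.17.1, pandas 2.3.3, numpy 2.4.6 and matplotlib 3.10.9, and took TMM factors from edgeR 4.0.16 (R 4.3.3). They were tested on simulated data. Some items are not reported here.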

Additional observations from a re-analysis of the deposited data

How the results depend on the processing

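No paired analysis was possible because each condition has 1 library. The set held 309 entries when the threshold had to be met in all 4 libraries and 292 at an RPKM of at least 1. With a window of 50 kb, 62 members had no opposite-strand gene nearby. With SM-164, a pseudocount of 0.1 gave 2 higher and 1 lower, a pseudocount of 1 or at least 1000 counted bases gave 0 higher, a 1.5-fold threshold gave 8 higher and 2 lower, and no minimum on the mean gave 5 lower. With CD30L+ CHO, the higher members numbered 0 at a pseudocount of 1, 19 at 1.5-fold, 12 with TMM scaling and 1 among those at the threshold in all 4 libraries. The lower ones numbered 7 and 1 at pseudocounts of 0.1 and 1, 1 at a mean RPKM of at least 1, 27 at 1.5-fold, 2 with TMM scaling or the median of sense genes set to 0, and 0 at the threshold in all 4 libraries. In CHO against DMSO, the higher members numbered 100 and 12 at pseudocounts of 0.1 and 1, 26 at a mean RPKM of at least 1, 190 at 1.5-fold and 21 at the threshold in all 4 libraries. The lower ones numbered 12 and 1 at those pseudocounts, 3 at a mean RPKM of at least 1 or at the threshold in all 4 libraries, 19 at 1.5-fold, 8 with the median of sense genes set to 0 and 9 with TMM scaling. With other libraries standing for the experiments, an alternative chosen after seeing the data, CD30L+ CHO against SM-164 gave 57 higher and 10 lower, and CD30L+ CHO against DMSO 57 and 15. Among called members no ratio changed sign under another pseudocount or scaling. Of the 74 ratios at 2-fold or more, 14 were still 2-fold at a pseudocount of 1 and 57 with TMM scaling. A larger pseudocount and a higher fold threshold lower the counts by construction, and for the other settings the cause was not tested. Most members lie below an RPKM of 1, so that short ones rest on few reads.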
